A study of Mus musculus with 16 samples.

Results

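The genes C1qa, C1qb, C1qc, P2ry12, Cx3cr1, Csf1r, Tmem119, Siglech and Trem2 mark microglia, the resident macrophages of the brain. These 9 genes, out of 53379 genes counted, were followed through libraries of sorted astrocytes and neurons from the mouse neocortex, where reads from microglia show what else a sorted library holds. They were picked as known microglia genes and selected on read counts that an earlier look at the same libraries had shown, so their levels are given as a description and no p-value is given for them. All 9 symbols were found by gene identifier.

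Cells came from single animals at postnatal day 4 (strain label CD1; a mix of C57BL/6 and CD1 by the study's methods), and all were green cells of MADM, mosaic analysis with double markers, on chromosome 7. In MADM, Cre recombinase exchanges chromosome arms between homologs in dividing cells and so ties the colour of a rare cell to its genotype. Here Emx1-cre, which is active in progenitors of the cortex, drove the exchange, and all animals carried the XGFAP-lacZ transgene, in which the GFAP promoter drives lacZ. Astrocytes were the GFP+/lacZ+ fraction of the sort and neurons the GFP+/lacZ- fraction. Control mice (wt) gave Eed+/+ cells, and mosaic mice, heterozygous for Eed in most of their tissue, gave Eed-/- cells that lack this core subunit of the Polycomb repressive complex. The labels placed 15 libraries in 4 groups, with 5 of Eed+/+ astrocytes, 5 of Eed-/- astrocytes, 2 of Eed+/+ neurons and 3 of Eed-/- neurons.

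Microglia descend from yolk sac progenitors, whereas the excitatory neurons and most astrocytes of the cortex descend from the radial glia in which Emx1 is active. C1qa, C1qb and C1qc encode the chains of C1q, the protein that starts the classical complement cascade and tags synapses for removal in the developing brain, and microglia are its main source there. Csf1r is the growth factor receptor on which microglia depend for survival, Cx3cr1 receives the neuronal chemokine Cx3cl1, P2ry12 senses ADP and guides microglial processes, and Trem2 binds lipids and lipoproteins. Tmem119 and Siglech encode surface proteins that separate resident microglia from most other macrophages.

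The C1q genes lie next to each other on chromosome 4, all on the minus strand (GRCm38): C1qb from 136880129 to 136886187, C1qc from 136889804 to 136893065 and C1qa from 136895917 to 136898803. The other members lie apart, among them Siglech on chromosome 7, the MADM chromosome, from 55768178 to 55778925. RefSeq promoter sequences (GRCm38.p6) were matched for 6 of the 9 genes. The letters AGGAAGT, searched on both strands as a core that the myeloid factor PU.1 (Spi1) is known to bind, were chosen after these promoters had been seen. They occurred in the 250 bases before the start of 3 of these 6 genes (C1qb, C1qc and P2ry12) and of 7.69% of 32851 promoters. The longer GAGGAAGT, which contains the first, was found for C1qc and in 2.44% of promoters. A match is only a run of letters. The C1qb and C1qc promoters are shown because these chains were the most read members per kilobase. They are written in the direction of the gene, at chr4:136886201-136886450 and chr4:136893066-136893164, without bases that GENCODE places in an exon, and capitals mark the match on the opposite strand.
C1qb: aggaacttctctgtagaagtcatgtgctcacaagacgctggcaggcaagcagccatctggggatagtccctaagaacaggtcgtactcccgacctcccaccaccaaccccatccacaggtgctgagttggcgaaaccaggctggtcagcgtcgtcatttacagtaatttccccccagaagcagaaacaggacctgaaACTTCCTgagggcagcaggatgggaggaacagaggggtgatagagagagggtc
C1qc: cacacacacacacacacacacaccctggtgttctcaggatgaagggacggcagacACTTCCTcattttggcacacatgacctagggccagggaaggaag

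The libraries differed widely in depth, from 211736 to 3178529 reads in genes, and 10 of the 15 had at least 1000000 uniquely aligned reads and at least 60% unique alignment (below, within the alignment limits). Outside these limits were Eed-/- astrocyte replicates 1, 3 and 4, Eed+/+ astrocyte replicate 3 and Eed+/+ neuron replicate 2. Reads of the targeted gene, Eed, ranged from 2 to 204 in Eed+/+ and from 0 to 26 in Eed-/- astrocytes, with 3 Eed-/- libraries at 0, a level of 34.2 ± 22.0 against 5.57 ± 7.62 CPM (counts per 1000000 gene reads; SD, n = 5 each). In neurons Eed was at 71.7 ± 5.62 CPM in Eed+/+ (SD, n = 2) and 28.5 ± 10.3 CPM in Eed-/- libraries (SD, n = 3). The counts include exons outside the deleted part and check the genotype only in part. Over all 15 libraries the marker lists did not keep the sorted cell types apart. The 10 astrocyte markers summed to 2783 to 22645 CPM in astrocyte and 6835 to 21269 CPM in neuron libraries. The 10 neuron markers summed to 0 to 3958 and 1033 to 2648 CPM. Within the alignment limits the astrocyte markers did separate, at 11268 to 22645 CPM in astrocyte and 6835 to 8523 CPM in neuron libraries. The neuron markers overlapped there too, at 253 to 2829 and 1660 to 2648 CPM.

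Microglial reads were concentrated in few libraries. A library was counted as carrying microglial RNA if at least 3 of the 9 genes had 3 or more reads, and 8 of 15 libraries did, 4 of 10 astrocyte and 4 of 5 neuron libraries. Of the 8893 reads of the 9 genes, 66.9% came from Eed-/- astrocyte replicate 1, which held 1.85% of all gene reads. With Eed-/- astrocyte replicate 3 and Eed+/+ astrocyte replicate 2 the share was 94.3%, against 19.1% of all gene reads. For comparison, 26.9%, 25.0%, 13.6%, 25.7% and 19.1% of all genes had 3 or more reads in Eed+/+ astrocyte replicates 1 to 5. The shares for the 5 Eed-/- astrocyte libraries, in the same order, were 6.49%, 20.2%, 10.9%, 3.55% and 23.0%. In neurons these shares were 26.3% and 16.9% in Eed+/+ replicates 1 and 2 and 25.5%, 26.8% and 27.3% in Eed-/- replicates 1 to 3. In bulk libraries, fewer cells of a type and less RNA per cell cannot be told apart.

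**Figure D1:**
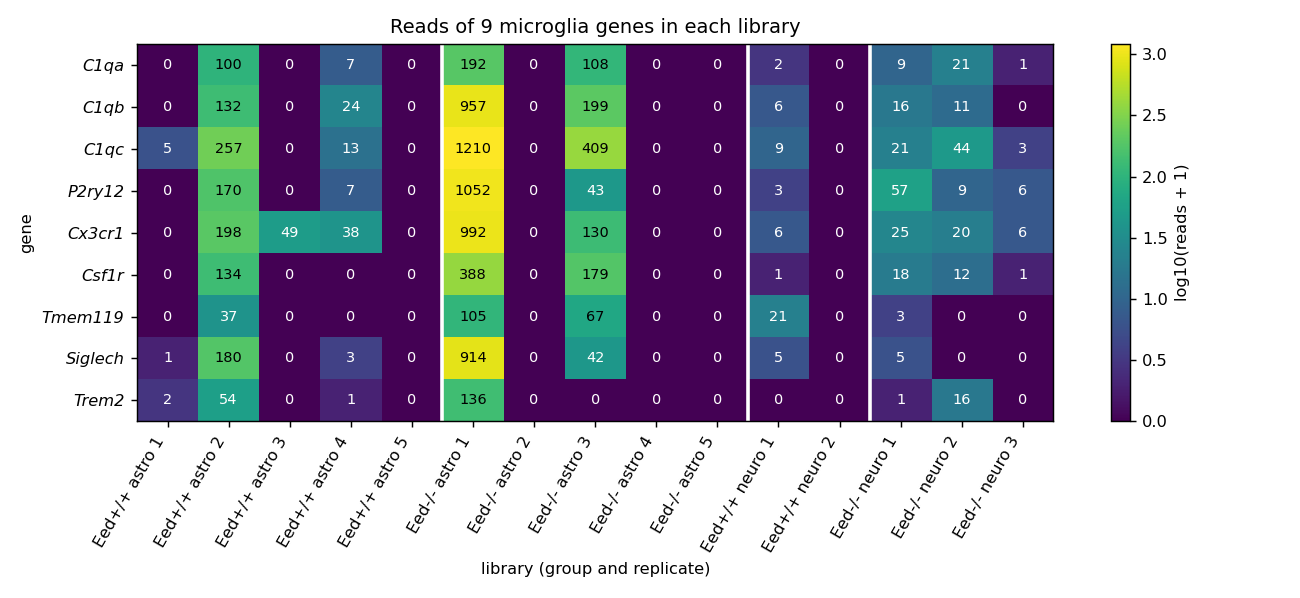
Reads of each of the 9 genes (rows) in each of the 15 libraries (columns, by group and replicate), printed in the cells and coloured by log10(reads + 1). Eed-/- astrocyte replicate 1 has the most reads of every gene, and 5 columns are 0 throughout.

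In Eed-/- astrocytes the 9 genes summed to 5946 reads in replicate 1, 0 in replicate 2, 1177 in replicate 3, 0 in replicate 4 and 0 in replicate 5. As a level this was 15522 CPM in replicate 1 (exact 95% Poisson interval 15130 to 15922) and 2917 CPM in replicate 3 (2753 to 3089). The 9 genes thus took 1.55% of all gene reads in replicate 1, and the level there was 5.32-fold that of replicate 3 and 39.1-fold that of Eed+/+ replicate 2. Both carrying libraries of this group lay outside the alignment limits, and both libraries within the limits, replicates 2 and 5, had no read. A count of 0 allowed up to 1.59 CPM in replicate 2 and 14.2 CPM in the shallow replicate 4, taking 3 counts as the floor. The level of replicate 1 was 9781-fold the floor of replicate 2.

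In Eed+/+ astrocytes the summed reads were 8, 1262, 49, 93 and 0 in replicates 1 to 5, or 3.81, 397, 103, 38.7 and 0 CPM. Replicate 2 was the deepest library of all and within the limits, at 397 CPM (interval 375 to 420). Replicate 3 was no carrier under the rule: all 49 of its reads were of Cx3cr1. Replicate 1 was no carrier either, with 1 member at 3 or more reads: it had 5 reads of C1qc, 2 of Trem2 and 1 of Siglech.

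In neurons the levels spanned a narrower range. Eed-/- neurons had 155, 133 and 17 reads in replicates 1 to 3 (123, 64.6 and 10.5 CPM), and Eed+/+ neurons had 53 and 0 (29.7 and 0 CPM, where 0 allowed up to 8.73 CPM in replicate 2). The carrying libraries thus spanned 10.5 to 123 CPM in neurons and 38.7 to 15522 CPM in astrocytes. Eed-/- neuron replicate 3 was just inside the rule, with 3 members at 3 or more reads. Intervals and floors cover counting error only, since amplified reads without molecular identifiers are not independent molecules.

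**Figure D2:**
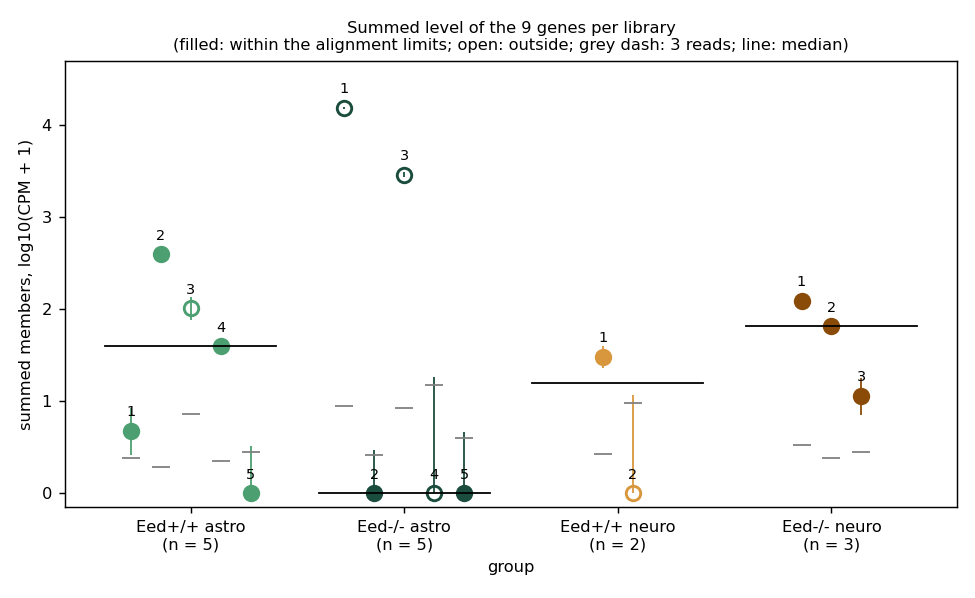
Summed level of the 9 genes in each library on a log10(CPM + 1) axis, by group, with exact 95% Poisson intervals as vertical lines, 3 reads as grey dashes and group medians as black lines. Open symbols are libraries outside the alignment limits, and the 2 highest points, Eed-/- astrocyte replicates 1 and 3, are open.

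Groups did not separate. The summed level was 3688 ± 6735 CPM (SD, n = 5; median 0) in Eed-/- and 108 ± 167 CPM (SD, n = 5; median 38.7) in Eed+/+ astrocytes, and 66.2 ± 56.4 (SD, n = 3) and 14.8 ± 20.97 CPM (SD, n = 2) in Eed-/- and Eed+/+ neurons. The groups overlapped in each cell type. In astrocytes the order of the means rested on the poorly aligned libraries: without Eed-/- replicate 1 that group's mean was 729 CPM, and within the limits it was 0 (2 libraries) against 109.9 CPM in Eed+/+ (4 libraries). The library numbers fell in 2 runs, whose meaning the sources used here do not give. In the first run the means were 6147 CPM in Eed-/- (3 libraries) and 200.4 in Eed+/+ astrocytes (2 libraries), and in the second 0 (2 libraries) and 47.1 CPM (3 libraries), with 1 carrier. All neuron libraries belonged to the first run.

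The C1q chains made up 39.7% of the member reads in Eed-/- astrocyte replicate 1, 60.8% in replicate 3 and 38.7% in Eed+/+ astrocyte replicate 2. C1qc, the C chain, was the most read member overall (1971 reads in 9 libraries). It had 1210 reads in Eed-/- astrocyte replicate 1, 409 in replicate 3 and 257 in Eed+/+ replicate 2. Smaller counts were 13 and 5 in Eed+/+ astrocyte replicates 4 and 1, 9 in Eed+/+ neuron replicate 1 and 21, 44 and 3 in Eed-/- neurons. As a level C1qc was 834 ± 1371 CPM (SD, n = 5) in Eed-/- and 17.7 ± 35.4 CPM (SD, n = 5) in Eed+/+ astrocytes, so the SD exceeded the mean in both groups.

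C1qb, the B chain, had 957 reads in Eed-/- astrocyte replicate 1, 199 in replicate 3, 132 in Eed+/+ replicate 2 and 24 in Eed+/+ replicate 4. In neurons it had 6 reads in Eed+/+ replicate 1 and 16, 11 and 0 in Eed-/- replicates 1 to 3. C1qa, the A chain, had fewer: 192 and 108 reads in Eed-/- astrocyte replicates 1 and 3 and 100 and 7 in Eed+/+ replicates 2 and 4. In neurons C1qa had 2 reads in Eed+/+ replicate 1 and 9, 21 and 1 in Eed-/- libraries. C1qa and C1qb were read in the same libraries, apart from the single C1qa read of Eed-/- neuron replicate 3.

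The balance of the chains was not constant, although the C1q molecule holds them in equal number. Of the C1q reads per kilobase of exon, C1qa, C1qb and C1qc took 27.4%, 34.6% and 38.0% in Eed+/+ astrocyte replicate 2. In Eed-/- astrocyte replicate 3 they took 20.8%, 36.7% and 42.5%, an order that was the same. In Eed-/- astrocyte replicate 1 they took 10.9%, 52.0% and 37.1%, with C1qb first. As a plain share of C1q reads C1qa was 8.14% there (exact 95% binomial interval 7.07 to 9.32) and 20.4% in Eed+/+ replicate 2 (17.0 to 24.3), so these 2 libraries differed by more than counting error.

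Among the receptors, Cx3cr1 was read most widely, in 9 libraries (1464 reads). It had 992 reads in Eed-/- astrocyte replicate 1, 130 in replicate 3, and 198, 49 and 38 in Eed+/+ astrocyte replicates 2, 3 and 4. In neurons it had 6 reads in Eed+/+ replicate 1 and 25, 20 and 6 in Eed-/- libraries. Eed+/+ astrocyte replicate 3 stood out, because at 103 CPM of Cx3cr1 it lay above replicate 2 (62.3 CPM) while the other 8 members were at 0.

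P2ry12 had 1052 reads in Eed-/- astrocyte replicate 1 but 43 in replicate 3, with 170 and 7 in Eed+/+ astrocyte replicates 2 and 4. Eed-/- neurons had 57, 9 and 6 reads and Eed+/+ neuron replicate 1 had 3. Replicate 1 of Eed-/- astrocytes held 78.1% of all P2ry12 reads. P2ry12 was the leading member of Eed-/- neuron replicate 1, with 36.8% of the member reads (exact 95% binomial interval 29.2 to 44.9).

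Csf1r had 388 and 179 reads in Eed-/- astrocyte replicates 1 and 3, 134 in Eed+/+ replicate 2, 1 in Eed+/+ neuron replicate 1 and 18, 12 and 1 in Eed-/- neurons. It was at 0 in Eed+/+ astrocyte replicate 4, in which 7 other members were read. Of its exon bases, 873 are shared with other genes, and reads there were set aside as ambiguous, which lowers its count. Trem2 was the least read receptor, with 136 reads in Eed-/- astrocyte replicate 1, 54 in Eed+/+ replicate 2, 16 in Eed-/- neuron replicate 2 and at most 2 elsewhere. In Eed-/- astrocyte replicate 3 Trem2 had 0 of 1177 member reads (exact 95% upper bound 0.313%), where the share of Eed+/+ replicate 2 (4.28%) would give 50.4 reads.

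Siglech, a sialic acid binding lectin, was concentrated most: 79.5% of its 1150 reads came from Eed-/- astrocyte replicate 1 (914 reads). The next were Eed+/+ astrocyte replicate 2 with 180 and Eed-/- astrocyte replicate 3 with 42, and no other library had more than 5. Tmem119 had 105 and 67 reads in Eed-/- astrocyte replicates 1 and 3 and 37 in Eed+/+ replicate 2. Its next count was 21 in Eed+/+ neuron replicate 1, where it was the leading member with 39.6% of 53 reads (exact 95% binomial interval 26.5 to 54.0), and it was at 0 in Eed-/- neuron replicates 2 and 3.

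Evenness was described by the effective number of members, the number of equally read genes that would give the same diversity (the exponential of the Shannon entropy of the read shares). It was 7.97 of 9 in Eed+/+ astrocyte replicate 2, 7.08 in Eed-/- astrocyte replicate 1 and 6.17 in replicate 3. In neurons it was 6.06 in Eed-/- replicates 1 and 2 and 5.73 in Eed+/+ replicate 1, and in Eed+/+ astrocyte replicate 4 it was 4.66. The library within the limits that had most member reads was thus the most even. Per kilobase of exon the values were 7.06, 6.09 and 5.16 in the first 3 libraries. Eed+/+ astrocyte replicate 3, with 1 gene, had an effective number of 1.

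Per kilobase C1qb and C1qc were the first 2 members in each of the 3 libraries with most member reads, and Trem2 came last. The place of C1qa depended on the library: it came next in Eed-/- astrocyte replicate 3 and Eed+/+ replicate 2, but in Eed-/- astrocyte replicate 1 its 6.75% lay below P2ry12 (15.1%), Siglech (9.88%) and Cx3cr1 (8.05%). Over the 3 libraries with most member reads, C1qb took 27.8 ± 5.58% of the member reads per kilobase (SD, n = 3), C1qc 26.9 ± 6.42% and C1qa 13.5 ± 5.88%. P2ry12 followed with 9.89 ± 6.41%, Siglech with 7.11 ± 4.42%, Cx3cr1 with 6.84 ± 1.87%, Csf1r with 3.87 ± 1.30%, Tmem119 with 3.06 ± 1.53% and Trem2 with 0.98 ± 0.97%. This order is of means that weight the libraries equally. Neighbours differed by more than either SD for C1qc and C1qa, for Cx3cr1 and Csf1r and for Tmem119 and Trem2, and by less than the larger SD for the other pairs. Lengths were those of all annotated exons of a gene, which understates a gene read mainly from a short transcript. Cx3cr1 ranged from 4.68% to 8.05% between these libraries and P2ry12 from 2.74% to 15.1%.

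**Figure D3:**
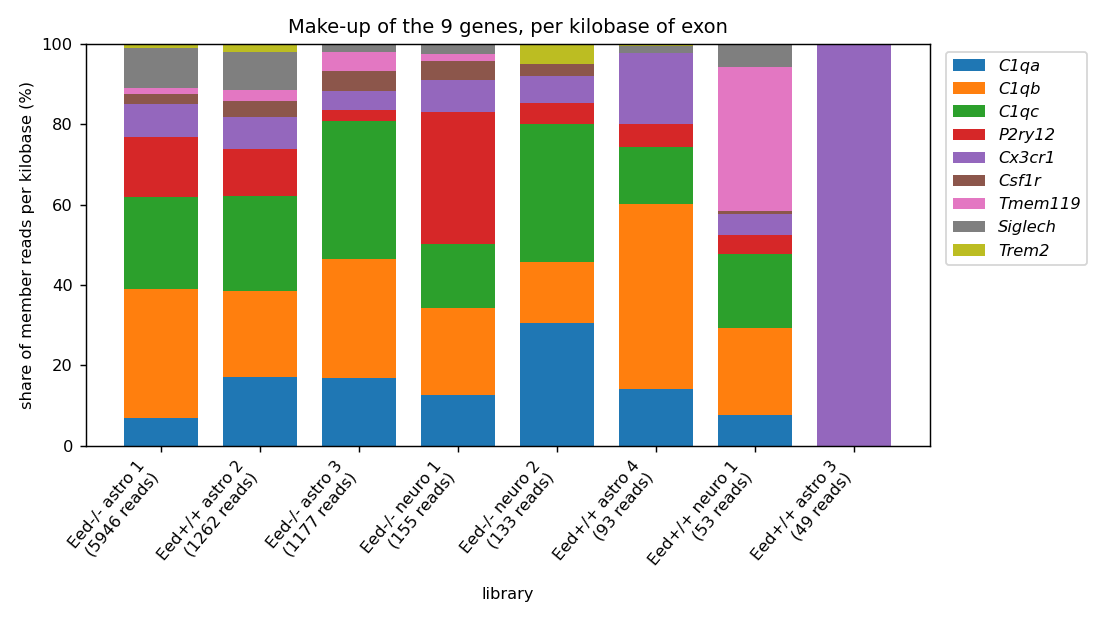
Share of each gene in the member reads per kilobase of exon (percent, vertical) in the 8 libraries with at least 20 member reads, ordered by member reads. The first 3 bars hold 8 or 9 genes, with C1q (blue, orange, green) taking the most, and the last bar is Cx3cr1 alone.

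Across the 15 libraries the members varied together. Pearson's r of log2(CPM + 1) over the 36 pairs had a median of 0.92, from 0.60 (Tmem119 with Trem2) to 0.99 (C1qa with C1qc), and Spearman's rho had a median of 0.80. The pattern was weaker in the other libraries: without the 3 with most member reads the median r was 0.54 over 12 libraries, from -0.09 to 0.94. C1qa with C1qc stayed the closest pair. Trem2 had the lowest median r with the other members, 0.72. All points share their library's depth, and these values are descriptions.

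Of 12463 genes with at least 10 reads in 3 or more libraries, those most like the summed members, by Pearson's r of log2(CPM + 1) over the 15 libraries, were Tyrobp (0.96), Rnase4 (0.94), Fcrls (0.89), Laptm5 (0.89), Arpc1b (0.89), Ctss (0.89), Lpcat2 (0.88), Lgals9 (0.88), Cd53 (0.86) and Itgb2 (0.86). Of these 10 genes, 6 were on the myeloid and microglia lists used here. Tyrobp encodes the adaptor through which Trem2 signals, and had 61 reads in Eed-/- astrocyte replicate 1, 9 in replicate 3 and 78 in Eed+/+ replicate 2. It also had 11 reads in Eed+/+ astrocyte replicate 3, in which Cx3cr1 was the only member read. That library further had 41 reads of P2ry13, a purine receptor related to P2ry12, and 7 of Gpr34. Arpc1b differed from the rest in being read in all 15 libraries.

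Other genes of microglia were found where the members were, though less strictly. Of the reads of 18 pan-myeloid genes, 81.9% lay in the 3 libraries with most member reads, against 94.3% for the members and 19.1% for all genes. Laptm5, a lysosomal protein of blood cells, had 434, 109 and 363 reads in Eed-/- astrocyte replicates 1 and 3 and Eed+/+ replicate 2, 29, 41 and 9 in Eed-/- neurons, 13 in Eed+/+ neuron replicate 1 and 0 in the other libraries. Spi1, which encodes PU.1, had 23 reads in all, of which 12 were in Eed+/+ astrocyte replicate 2 and 0 in Eed-/- astrocyte replicates 1 and 3. Aif1, which encodes the microglial protein Iba1, had 148 reads in Eed-/- astrocyte replicate 1 and 22 in Eed+/+ replicate 2, and 0 in Eed-/- replicate 3.

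For 10 other homeostatic microglia genes the share in these 3 libraries was 61.2%. Fcrls, an Fc receptor-like protein, had 690 of its 767 reads there. Sall1, a transcription factor, was instead also read where no member was: it had 95, 15, 108 and 191 reads in Eed-/- astrocyte replicates 2, 4 and 5 and Eed+/+ replicate 5. Sall1 is also known to be expressed in neural progenitors.

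Early postnatal and activated microglia genes (10 genes) had 576 of their 1280 reads in the 3 libraries. Ccl3, a chemokine, had 308 reads in Eed-/- astrocyte replicate 1, 82 in Eed+/+ replicate 2, 38 and 4 in Eed-/- neuron replicates 1 and 2, and 0 in Eed-/- astrocyte replicate 3. Spp1 had 70 reads in 2 libraries, none of them among these 3. Genes of border macrophages were almost absent: 7 genes had 25 reads in all, Cd163, Lyve1 and Ms4a7 had 0 in every labelled library, and Mrc1 led with 17. Of 8 monocyte and neutrophil genes, Camp alone was read, with 7 reads, and Ccr2, Ly6c2, S100a8 and S100a9 were at 0.

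Markers of other cells moved with the members in part. In Eed-/- astrocyte replicate 1 the 9 genes (15522 CPM) lay 5.58-fold above the 10 astrocyte markers (2783 CPM, the lowest of all libraries), and neuron markers were at 0. Endothelial markers summed to 640 CPM there and to 0 to 54.4 CPM elsewhere, but 244 of these 245 reads were of Tie1, and 6 of the 8 markers, Cldn5, Pecam1 and Kdr among them, were at 0. Erythroid markers summed to 8829 CPM there, but to 11925 CPM in Eed-/- astrocyte replicate 4, which had no member read, and to at most 52.0 CPM in the other labelled libraries. Mural and fibroblast markers summed to 1656 CPM in Eed-/- astrocyte replicate 3, the highest of all libraries, and to 24.7 to 411 CPM in the other labelled libraries. Of the reads of these 9 markers, 45.6% lay in the 3 libraries with most member reads, against 19.1% of all gene reads. The share was 23.3% for Pdgfrb, the most read, and highest for Dcn, a matrix proteoglycan of fibroblasts, with 561 of 595 reads (94.3%). Of these Dcn reads 481 were in Eed-/- astrocyte replicate 3, 80 in Eed+/+ replicate 2 and 0 in Eed-/- replicate 1. Eed-/- astrocyte replicate 1 had 3466 genes with 3 or more reads (6.49% of all genes), against 13362 (25.0%) in Eed+/+ astrocyte replicate 2. In Eed-/- astrocyte replicate 3 and Eed+/+ replicate 2 the members were 0.283 and 0.019 of the astrocyte marker level. The part of these other cells, of depth and of alignment in the microglial reads was not tested.

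**Figure D4:**
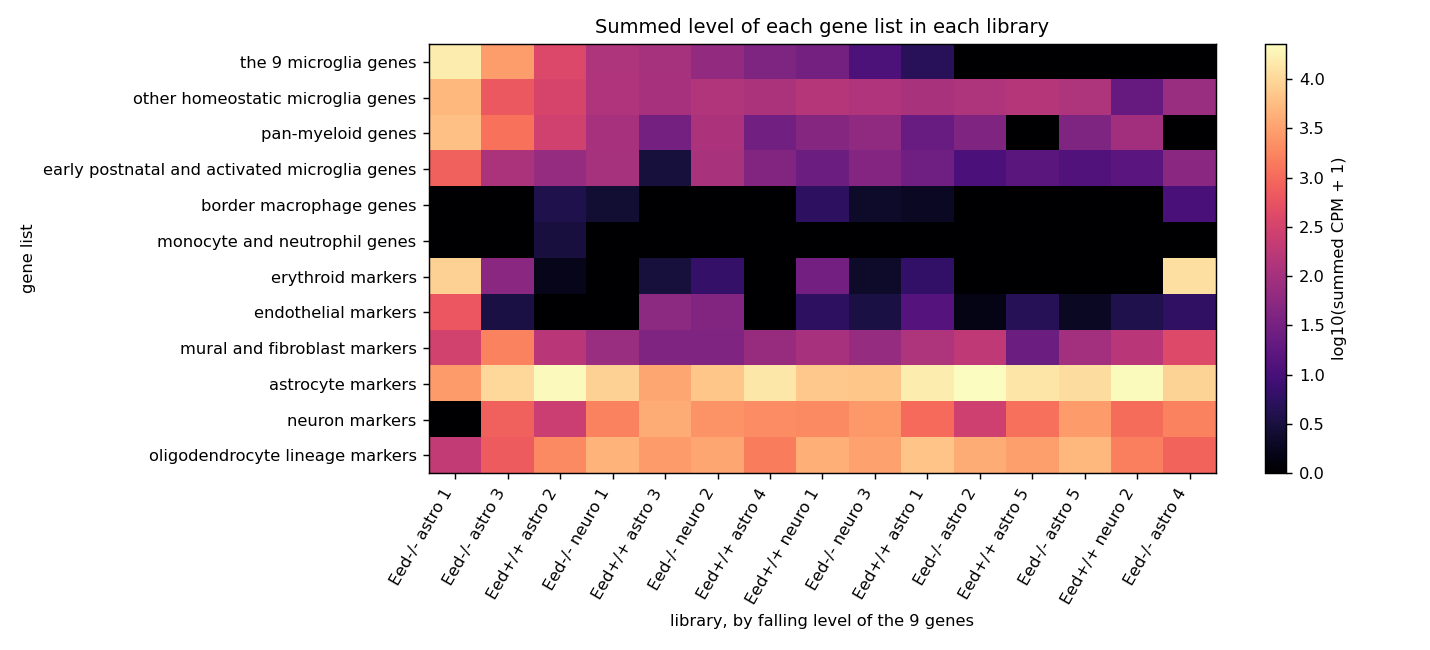
Summed level of the 9 genes and of 11 marker lists (rows, log10(summed CPM + 1)) in each library, ordered by falling level of the 9 genes. Pan-myeloid genes are highest in the same 3 libraries as the members, border macrophage genes stay near 0, and erythroid markers are high in Eed-/- astrocyte replicates 1 and 4.

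The comparisons of the design were fitted over all genes, to set a background. The spread between astrocyte libraries was wide enough that, on simulated counts with this spread, large changes were missed in the astrocyte and cell type fits, so few calls there say little about how many genes differ. For genotype in astrocytes, 0 of 8956 genes (0%) passed an adjusted p of 0.05 by edgeR (quasi-likelihood test), with 108 at an unadjusted p under 0.05 and 1 called by DESeq2. For genotype in neurons 0 of 11862 passed (0%), with 862 unadjusted and 27 called by DESeq2. Between astrocytes and neurons 2 of 13367 passed (0.015%), with 736 unadjusted and 5 called by DESeq2. The 2 genes, named after their values were seen, were lower in astrocytes: Gm23935 (log2 fold change -3.89, SE 0.79, adjusted p 0.0109 by edgeR) and C1ql2 (-6.71, SE 1.47, adjusted p 0.0339 by edgeR), a secreted synaptic protein that is related to C1q but is no chain of it. The count was 0 without the 3 libraries with most member reads, and it was also 0 within the alignment limits, without a filter on low counts, with the replicate block and without any 1 of several other libraries.

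Filters on low counts left few members in these fits: 1 (Cx3cr1) in astrocytes, 3 (C1qa, C1qc and Cx3cr1) in neurons and 9 between cell types. Between Eed-/- and Eed+/+ neurons 3 of the 9 genes did not overlap, P2ry12, Cx3cr1 and Csf1r, each higher in all 3 Eed-/- libraries. Of 23689 genes read in neurons, 9.89% did the same. Cx3cr1 had 6 reads and Csf1r 1 read in both Eed-/- replicate 3 and Eed+/+ replicate 1, so their order there rested on depth. Eed+/+ replicate 2 had no read of the 3 genes, but its floor of 8.73 CPM lay above the lowest Eed-/- level of each. P2ry12 was 17.8 ± 23.9 CPM in Eed-/- (SD, n = 3) and 0.84 ± 1.19 CPM in Eed+/+ neurons (SD, n = 2). Tmem119 lay the other way, at 0.80 ± 1.38 and 5.88 ± 8.31 CPM, and overlapped.

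A list of 12 ligands of microglial receptors held Apoe, Clu, Csf1, Il34 and Cx3cl1, which bind receptors among the members, and Tgfb1, Tgfb2, Tgfb3, Cd47, Cd200, Gas6 and Pros1, which bind other receptors. All but Il34 were also read in libraries without a member read. Of the 12 ligands 11 passed the filter between cell types and 0 were called. Apoe, a lipoprotein that Trem2 binds, had the largest level, 12042 ± 6797 CPM in astrocytes (SD, n = 10) and 4424 ± 3092 in neurons (SD, n = 5), a log2 fold change of 1.82 (SE 0.65, adjusted p 0.472 by edgeR). Csf1, which binds Csf1r, had 54, 188, 71, 45 and 12 reads in Eed+/+ astrocytes and 0, 11, 7, 0 and 12 in Eed-/- astrocytes. That was 51.9 ± 57.4 and 7.05 ± 7.62 CPM (SD, n = 5 each), a log2 fold change of -2.64 (SE 1.68, adjusted p 1.0 by edgeR), and the groups overlapped. Il34, the other ligand of Csf1r, had 16 reads in 2 libraries.

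Cx3cl1, the ligand of Cx3cr1, was 74.5 ± 123 CPM in astrocytes (SD, n = 10) and 22.5 ± 7.01 in neurons (SD, n = 5), with 3 astrocyte libraries at 0. Clu, another ligand of Trem2, was 922 ± 718 and 476 ± 203 CPM, and Tgfb2 was 193 ± 105 and 146 ± 30.3 CPM. None of the 3 passed the test (adjusted p 1.0 by edgeR for each). Tgfb1, which microglia need for their identity, had 39 reads, 29 of them in the 3 libraries with most member reads.

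**Figure D5:**
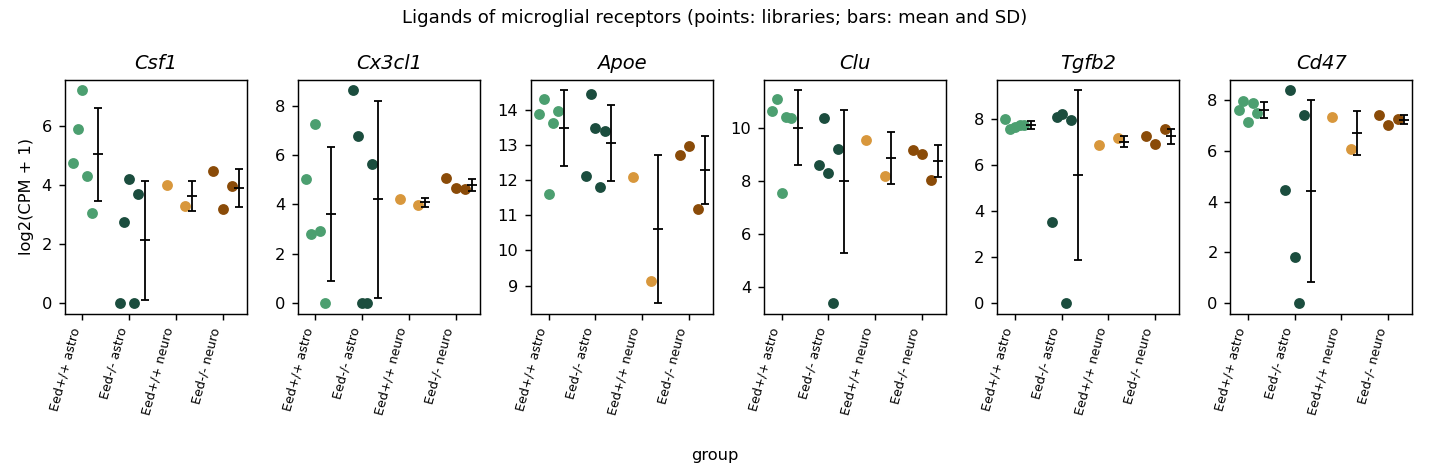
Levels of 6 ligands of microglial receptors in each library (points, log2(CPM + 1), with a separate vertical axis for each gene), by group, with mean and SD as bars. Apoe has the highest mean of the 6 in every group, and Csf1 and Cx3cl1 are at 0 in 2 Eed-/- astrocyte libraries each.

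Further partners of the receptors and the complement genes beyond C1q were read in libraries with and without member reads. Of 11 partner and nucleotide enzyme genes, which did not include Tyrobp, 26.2% of reads lay in the 3 libraries with most member reads. Within that list Nrros, which helps microglia to activate Tgfb1, had 29 of its 48 reads there. For the 14 other complement genes the share was 22.8%. The test called 0 of 8 and 0 of 5 of these genes between cell types, as it called 0 of 13 pan-myeloid genes. C3, C5ar1, Cfb and Cfi had 0 reads in every labelled library. C3ar1, the receptor for C3a, had 110 of its 140 reads in these 3 libraries, 53 and 49 of them in Eed-/- astrocyte replicates 1 and 3.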

How the data were processed

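RNA was measured in 16 Smart-Seq v2 libraries of sorted cells, 15 with a group in the labels. The authors aligned reads with STAR (GRCm38, mm10). The deposited values are unnormalized read counts for each gene, from unique alignments. The sources used here do not give the annotation release. First-strand reads made up 46.7% to 52.7%, so the unstranded column 2 was used, in which reads on overlapping or antisense genes cannot be assigned. The 4 lines of totals were left out, and 8.55% to 71.6% of uniquely aligned reads fell outside genes. Gene symbols came from GENCODE release 21 (53274 identifiers matched, 105 did not).

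Levels are counts per 1000000 gene reads. Groups were compared with edgeR 4.0.16 (quasi-likelihood, TMM, filterByExpr, robust, two-sided, Benjamini-Hochberg, R 4.3.3), the genotypes within each cell type and the cell types over all 15 libraries. DESeq2 1.42.0 was an alternative. The script was tested on simulated data, where the astrocyte and cell type fits recovered most large changes at a moderate spread and none at the spread estimated here, and the neuron fit recovered a minority at either. Floors are 3 counts. Named genes were all 9 members, the most read or called genes of each list, and the 10 genes most like the members. Of these, 1 gene is not reported here. The members and the other gene lists were chosen with earlier results of these data known. The sources used here do not name the libraries the study set aside, so none was dropped. Individual animals were the replicates. Same-numbered libraries did not deviate together (correlations -0.24 to 0.14).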

Additional observations from a re-analysis of the deposited data

Results flagged for a closer look

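In groups of 5, 25 of 48 values had an extreme library whose gap to the next exceeded Dixon's 95% critical value, where chance flags about 1 in 20 groups. That rate is no yardstick for the members, which were chosen with the reads of these libraries known, nor for values that share a library, so the values below are a description.

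Eed+/+ astrocyte replicate 2 was far above the other 4 libraries for C1qa (31.5 CPM), C1qb (41.5), C1qc (80.9), P2ry12 (53.5), Csf1r (42.2), Tmem119 (11.6), Siglech (56.6), Trem2 (17.0) and the summed members (397 CPM). The same library stood apart for other homeostatic microglia genes (341 CPM), pan-myeloid genes (289 CPM) and monocyte and neutrophil genes (2.20 CPM, from Camp alone). Eed+/+ astrocyte replicate 3 stood apart for endothelial markers (54.4 CPM).

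Eed-/- astrocyte replicate 1 was far above the other 4 libraries for C1qb (2498 CPM), P2ry12 (2746), Cx3cr1 (2590), Siglech (2386), Trem2 (355) and the summed members (15522 CPM). It also stood apart for other homeostatic microglia genes (5093 CPM), pan-myeloid genes (6166 CPM), early postnatal and activated microglia genes (804 CPM, from Ccl3 alone) and endothelial markers (640 CPM, from Tie1 but for 1 read of Cdh5). Eed-/- astrocyte replicate 4 stood apart for border macrophage genes (9.45 CPM, from 2 reads of Mrc1), and replicate 3 for mural and fibroblast markers (1656 CPM).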

How the results depend on the processing

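Genes called moved with the fit. In astrocytes there were 1 with DESeq2, 5 without a filter, 24 with a mean count above 10 and 0 to 1 when 1 library was left out. In neurons there were 27 with DESeq2, 127 without a filter, 1 within the limits and 0 to 2601 when 1 library was left out, the highest without Eed+/+ replicate 1, which left 1 library assumed to vary like the others, and 15 without Eed-/- replicate 1. Between cell types there were 5 with DESeq2, 0 without a filter, 1 with a mean count above 10, 0 within the limits, 0 with the replicate block and 0 to 5 when 1 library was left out. Without the 3 libraries with most member reads, an alternative chosen after seeing the data, there were 0 in astrocytes and 0 between cell types. The cause was not tested. The sources used here do not say whether same-numbered astrocyte and neuron libraries of a genotype came from the same animal. The main cell type fit treated all libraries as independent. The replicate block gave 0 calls in each genotype comparison.

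The mean summed level of the members ranged, with 1 library left out, from 729 to 4610 CPM in Eed-/- astrocytes, 36.3 to 136 in Eed+/+ astrocytes, 37.6 to 94.0 in Eed-/- and 0 to 29.7 in Eed+/+ neurons. It was 2707 CPM in Eed-/- astrocytes with TMM sizes and 0 within the limits. Carrying libraries numbered 6 to 9 under the other thresholds. The median correlation between members was 0.80 with Spearman and 0.54 without the 3 libraries, both chosen after seeing the data. Shallow libraries limit what a 0 shows.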

Other observations

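The library whose labels named both cell types had 0 reads of the 9 genes among 221456 gene reads, which allows up to 13.5 CPM for their sum. Its astrocyte markers summed to 21675 CPM, neuron markers to 9.03 CPM and erythroid markers to 135 CPM.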
